A study of Mus musculus with 30 samples.

Results

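The 10 genes described here encode the constant parts of mouse antibodies and the chain that links antibody units. They are the heavy-chain constant genes Ighm, Ighd, Ighg1, Ighg2b, Ighg2c, Ighg3, Igha and Ighe, the kappa light-chain constant gene Igkc, and Jchain. They were chosen by symbol from the 48709 genes of the count tables, and all 10 were found once. RNA sequencing had been performed on brain, kidney, liver, quadriceps muscle and spleen of adult C57BL/6 mice. Each tissue had 3 libraries from wild-type mice (WT) and 3 from Ctcf haploinsufficient mice (Ctcf+/-), which carry 1 working copy of Ctcf, the gene of a DNA-binding protein that shapes chromatin loops. The series design names 3 mice per genotype for the 5 tissues, but the labels do not say that a replicate number marks the same mouse in every tissue. No cell type was isolated, so fewer cells of a type and less immunoglobulin RNA per cell cannot be told apart.

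An antibody is built of heavy and light chains, and the constant region of the heavy chain sets its isotype. Naive B cells make IgM and IgD from Ighm and Ighd by alternative splicing of 1 long transcript. After activation, class switch recombination places another constant gene (Ighg, Ighe or Igha) behind the rearranged variable region. Plasma cells then express the chosen genes at very high levels. J chain joins the units of secreted IgM pentamers and IgA dimers, and IgA plasma cells are best known from mucosal tissue. The Igh locus is also a known place of CTCF binding, both in its variable part and beyond its 3′ end. In C57BL/6 mice the Ighg2c gene takes the place that Ighg2a has in some other strains.

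The heavy-chain constant genes lie on the minus strand of chromosome 12 in GRCm38, from Ighm (113418558 to 113422730) to Igha (113254830 to 113260236), with Ighd, Ighg3, Ighg1, Ighg2b, Ighg2c and Ighe between them in that order. Igkc lies on the plus strand of chromosome 6 (70726435 to 70726966) and Jchain on the minus strand of chromosome 5 (88519809 to 88527891). In the counting annotation no exon of these genes overlaps an exon of another gene. The first 60 bases of the CH1 exon, the first coding exon of the constant region, are shown for Ighm and for the 4 gamma genes, because the 4 are similar enough that a count for 1 of them has to be read with the others in mind. They are the coding strand from the GENCODE M21 transcripts, 5′ to 3′, and capitals mark bases of a gamma gene that differ from Ighg2b at the same position.
Ighm, chr12:113422671-113422730, minus strand: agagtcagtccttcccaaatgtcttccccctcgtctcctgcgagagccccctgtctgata
Ighg3, chr12:113361173-113361232, minus strand: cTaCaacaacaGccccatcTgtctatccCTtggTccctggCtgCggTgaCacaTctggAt
Ighg1, chr12:113330464-113330523, minus strand: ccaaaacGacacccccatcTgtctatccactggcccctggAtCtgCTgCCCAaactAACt
Ighg2b, chr12:113307874-113307933, minus strand: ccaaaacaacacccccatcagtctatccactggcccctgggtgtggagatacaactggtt
Ighg2c, chr12:113288873-113288932, minus strand: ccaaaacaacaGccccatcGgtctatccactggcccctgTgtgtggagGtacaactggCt
Over these 60 bases Ighg2c differed from Ighg2b at 5 positions, and Ighg1 and Ighg3 at 13 each. Over the whole CH1 exon of 291 bases, identity between gamma genes ran from 78.4% (Ighg2c and Ighg3) to 88.3% (Ighg1 and Ighg2b).

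The longest stretch that 2 gamma genes share without a difference was 78 bases, in 1 coding exon of Ighg2b (chr12:113306869-113306946) and Ighg2c (chr12:113287869-113287946), both on the minus strand. It is shown because a read that falls wholly inside it cannot be placed in either gene.
Shared run of Ighg2b and Ighg2c: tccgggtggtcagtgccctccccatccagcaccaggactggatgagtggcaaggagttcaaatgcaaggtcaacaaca
Of the 50-base windows of Ighg2c, 5.49% also occurred in another gene, always Ighg2b. The share was 4.15% for Ighg2b, 1.58% for Ighg3, 0.393% for Ighg1 and 0.288% for Jchain. For Ighm, Ighd, Igha, Ighe and Igkc it was 0, with 0 of 1837 windows for Ighm. These windows come from the GENCODE M21 transcripts, with 2463 for Ighg3, while the Ighg3 exons used for counting span 1082 bases. The share within the counted exons of Ighg3 may therefore differ. Reads that map to several places were not counted, so the gamma genes, Ighg2b and Ighg2c among them, may be slightly undercounted, and their values are uncertain to that extent.

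Libraries held 49819907 to 131645999 counts each, so that 3 counts, taken as the floor of detection, correspond to 0.0228 to 0.0602 CPM (counts per 1000000 counts of the scaled library). The tissues showed their own marker lists, and Ctcf itself was lower in every Ctcf+/- library than in every WT library in 5 of 5 tissues, with log2 fold changes from -0.70 to -0.57 and a call in 1 of 5. Traces of other tissues were measured in some groups. In spleen the summed liver markers were 23.3 to 29.3 CPM in WT and 0.0629 to 0.258 CPM in Ctcf+/-, with 5 of 6 called lower (Alb, Apoa1, Ttr, Ahsg and Cyp2e1). Kidney markers there were 0.0586 to 0.261 CPM in WT and 8.41 to 16.9 CPM in Ctcf+/-, with 3 of 6 called higher (Kap, Umod and Slc12a1). In muscle the kidney markers were 15.9 to 116 CPM in WT and 0.16 to 9.4 CPM in Ctcf+/-, with none called. The part of such traces in the values below was not tested.

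Spleen held by far the most immunoglobulin RNA. Each of the 10 genes was higher in spleen than in brain, kidney, liver and muscle (edgeR quasi-likelihood test with Benjamini-Hochberg adjustment, 10 of 10 called in each of the 4 pairs). The background was high: 85.7% of all genes tested were called between spleen and brain, 82.5% between spleen and kidney, 79.2% between spleen and liver and 81.3% between spleen and muscle. Scaled per kilobase of exon, the mean level over the 6 spleen libraries was 3704 CPM per kb for Igkc, 1552 for Ighm, 286 for Ighd, 281 for Igha, 159 for Jchain, 84.8 for Ighg2c, 67.2 for Ighg3, 57.5 for Ighg2b, 12.5 for Ighg1 and 0.367 for Ighe. Igkc and Ighm therefore led, and Ighe, the gene of the isotype of allergy and parasite defence, was the rarest. The exon tables of Ighg3 and Ighe hold 4 entries each, against 6 for Ighm and the other gamma genes, which limits how exactly levels can be compared between genes.

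**Figure D1:**
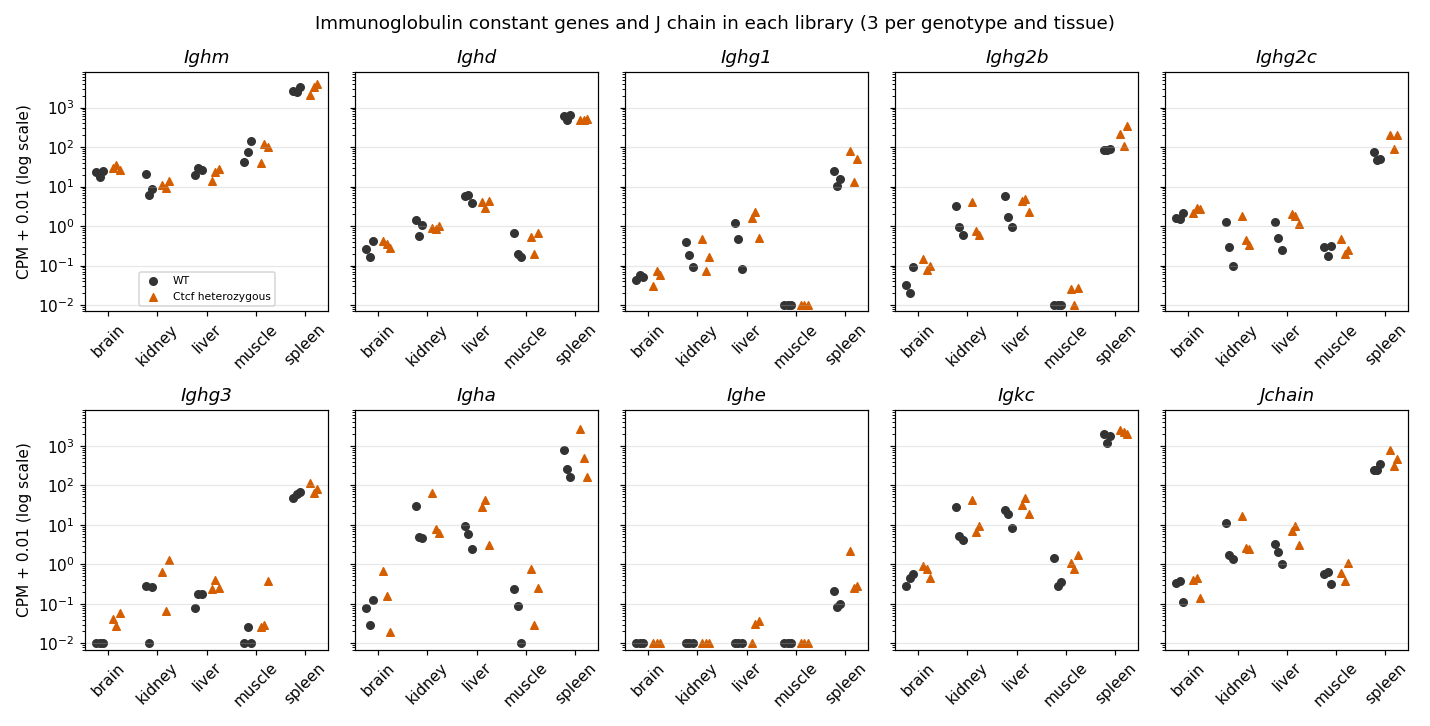
CPM plus 0.01, on a log scale, of each of the 10 genes in every library, by tissue. Circles are WT and triangles Ctcf+/- libraries, 3 of each per tissue, and points at the bottom are libraries with no count. All genes are highest in spleen, while Ighm is the 1 gene with all muscle and brain libraries above 10 CPM.

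Ighm, which encodes the heavy chain of IgM, ranked differently across tissues from the other genes. In muscle the WT libraries had 42.6, 73.7 and 140 CPM and the Ctcf+/- libraries 38.7, 120 and 99.5 CPM. In brain the values were 23.6, 17.3 and 24.2 CPM in WT and 30.4, 34.8 and 26.3 CPM in Ctcf+/-. On this scale all muscle libraries were above all brain libraries, although neither tissue is a B cell organ. Liver had 19.9, 29.9 and 26.4 CPM in WT and 13.8, 23.2 and 27.8 CPM in Ctcf+/-. Kidney, the lowest, had 20.7, 6.08 and 8.93 CPM in WT and 11, 9.02 and 13.6 CPM in Ctcf+/-. The order by mean was spleen, muscle, brain, liver, kidney, and every neighbouring pair was called except brain and liver (log2 difference -0.14 ± 0.29 SE, adjusted p = 0.655, edgeR). Between brain and muscle Ighm was higher in muscle by 1.72 ± 0.29 on the log2 scale (adjusted p = 4.94e-06, edgeR). Scaling by total counts, which moves the median of all genes between these tissues by -1.09, left 0.56 (adjusted p = 0.0711, edgeR). The same scaling reduced Ighm in liver over kidney from 1.02 to 0.03 (adjusted p = 0.956, edgeR) and put liver below brain by 1.25 (log2 difference -1.25, adjusted p = 0.000275, edgeR). The place of liver in the order of Ighm levels therefore depends on the scaling, and the ratios of genes within a library, given next, do not.

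Ighd, expressed with Ighm in naive B cells, followed another order: spleen, liver, kidney, muscle, brain. Its level was 473 to 667 CPM in spleen, 2.81 to 6.21 CPM in liver, 0.546 to 1.41 CPM in kidney, 0.156 to 0.672 CPM in muscle and 0.157 to 0.422 CPM in brain. Muscle and brain were not distinguished by the test, and each other neighbouring pair was. The ratio of Ighd to Ighm counts had a median of 0.198 in spleen, 0.18 in liver and 0.0856 in kidney, but 0.0107 in brain and 0.00463 in muscle. The highest ratio of any brain or muscle library, 0.0174, was below the lowest of kidney, 0.0681.

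Igkc, the light-chain constant gene used by most mouse antibodies, was likewise low where Ighm was not. Muscle libraries had 1.45, 0.278 and 0.347 CPM of Igkc in WT and 1.06, 0.748 and 1.72 CPM in Ctcf+/-. Brain libraries had 0.281, 0.432 and 0.549 CPM in WT and 0.914, 0.744 and 0.447 CPM in Ctcf+/-. Liver reached 8.44 to 46.4 CPM, kidney 4.13 to 43.1 CPM and spleen 1179.8 to 2531 CPM. The order was spleen, liver, kidney, muscle, brain, and the pairs liver and kidney, and muscle and brain, were not called.

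The ratio of Ighm to Igkc counts separated the tissues into those near 1 and those far above it. Its geometric mean was 0.997 in kidney, 1.05 in liver and 1.49 in spleen, against 48.8 in brain and 101 in muscle (6 libraries each). Brain libraries spanned 33.2 to 83.8 and muscle libraries 29.5 to 402, and the highest value of any kidney, liver or spleen library was 3.13. Each of the 6 pairs of brain or muscle with kidney, liver or spleen differed (2-sided exact permutation test, n = 6 against 6, p = 0.00216, the smallest possible, adjusted p = 0.00361 over 10 pairs). Among the other 4 pairs the smallest adjusted p was 0.229, for brain and muscle, by the same exact test. The ratio of all heavy-chain to all light-chain constant counts, with the lambda genes Iglc1 to Iglc3 included, had medians of 44.1 in brain and 83.1 in muscle and of 2.23, 1.71 and 1.94 in kidney, liver and spleen.

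**Figure D2:**
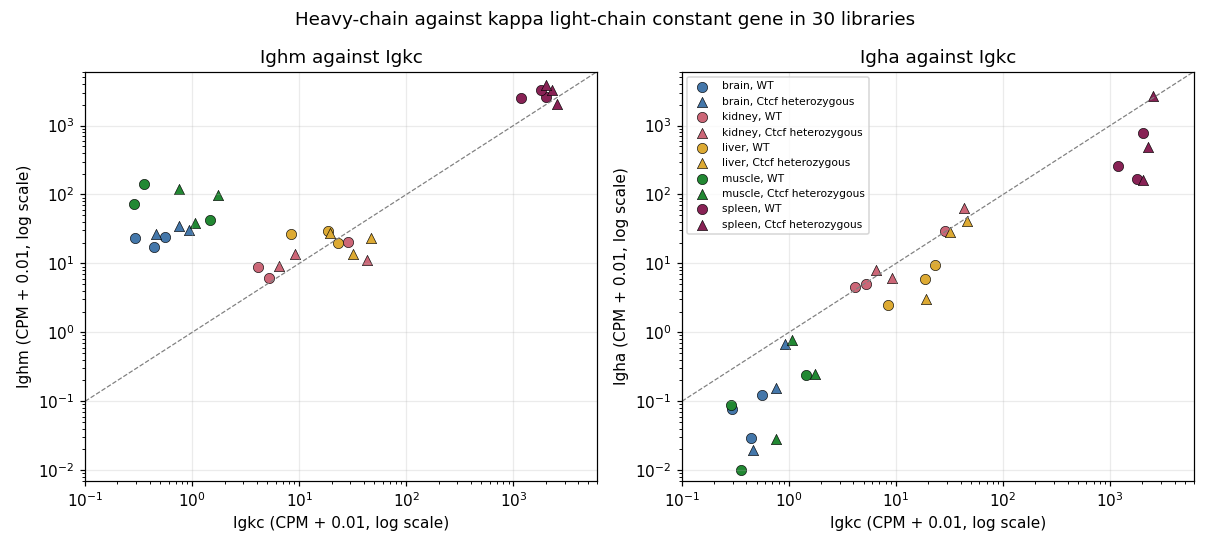
Ighm (left) and Igha (right) against Igkc in 30 libraries, each as CPM plus 0.01 on log scales. The dashed line marks equal values, colours are tissues, circles WT and triangles Ctcf+/-. Brain and muscle libraries lie far above the line for Ighm, by 29.5 to 402 times in counts, and at or below it for Igha.

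Cd79a, Cd79b and the sum of 15 B cell markers did not follow Ighm into brain and muscle. Cd79a, a signalling part of the B cell receptor, had means of 0.328 ± 0.0583 CPM in WT brain and 0.373 ± 0.254 CPM in WT muscle (SD, n = 3), against 4.16 ± 1.33 CPM in WT liver and 859.9 ± 140.1 CPM in WT spleen. Cd79b, its partner, had 0.318 ± 0.0465 CPM in WT brain and 0.683 ± 0.321 CPM in WT muscle (SD, n = 3). Cd37, a leukocyte tetraspanin, had 3.42 ± 0.097 CPM in WT brain, 0.676 ± 0.0894 CPM in WT muscle and 669.6 ± 111 CPM in WT spleen (SD, n = 3). The 15 B cell markers summed to 10.3 to 11.4 CPM in brain, 11.5 to 18.3 CPM in muscle, 14.8 to 25.5 CPM in kidney, 26.5 to 44.1 CPM in liver and 4463 to 6433 CPM in spleen. Per unit of that sum, Ighm had a median of 6.33 in muscle and 2.27 in brain, and of 0.509 to 0.739 in the other 3 tissues. Some of these markers are not restricted to B cells, so the sums in brain and muscle are upper values. Mzb1, a gene of B and plasma cells that is not among the 15, went the other way in muscle. It had 2.17 ± 0.49 CPM in WT muscle, against 1.1 ± 0.129 CPM in WT kidney and 0.607 ± 0.181 CPM in WT liver (SD, n = 3). In WT brain it had 0.0651 ± 0.0324 CPM (SD, n = 3). The source of the Ighm counts in brain and muscle was not tested; the counting did not use strand.

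The 4 gamma genes encode the heavy chains of the IgG subclasses. In brain, Ighg2c stood apart from the others with 1.62, 1.5 and 2.15 CPM in WT and 2.1, 2.93 and 2.64 CPM in Ctcf+/-. The other 3 gamma genes were at 0 to 0.138 CPM there. Ighg2c thus exceeded Ighg2b by 15.2 to 153 times in counts in the brain libraries, while in spleen it was 0.54 to 0.988 of Ighg2b, in liver 0.217 to 0.494 and in kidney 0.149 to 0.588. Ighg2c was also higher in brain than in kidney, by 1.65 ± 0.42 (SE) on the log2 scale (adjusted p = 0.000742, edgeR), and narrowly than in liver (log2 fold change of liver over brain -0.95 ± 0.44 SE, adjusted p = 0.0466, edgeR). The call against liver was lost with limma-voom (adjusted p = 0.0869) and with WT libraries alone (adjusted p = 0.0652, edgeR). In muscle Ighg2c had 0.17 to 0.448 CPM.

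The remaining gamma genes were highest in spleen, followed by liver or kidney. Ighg1 was listed at 0 counts in all 6 muscle libraries and reached 0.0213 to 0.0639 CPM in brain, 0.0649 to 0.461 CPM in kidney and 0.0715 to 2.24 CPM in liver. Ighg2b had at most 0.0172 CPM in muscle, 0.592 to 3.96 CPM in kidney and 0.953 to 5.76 CPM in liver. Ighg3, a subclass made early in responses to polysaccharides, had 0 to 1.3 CPM in kidney and 0.0708 to 0.401 CPM in liver. For Ighg3 the neighbouring pairs below spleen (kidney, liver, muscle, brain) were not called.

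Igha, the IgA heavy chain, and Jchain varied widely between libraries of a tissue. Igha had 29.2, 4.94 and 4.52 CPM in WT kidney and 63.2, 7.94 and 6.1 CPM in Ctcf+/- kidney. In both genotypes the library numbered 1 was several times above the other 2. Jchain showed the same shape in kidney, with 11.2, 1.67 and 1.32 CPM in WT and 16.6, 2.56 and 2.49 CPM in Ctcf+/-. The ratio of the highest to the lowest of 6 libraries for Igha was 14 in kidney, 16.8 in liver, 16.1 in spleen and 70.4 in brain, where counts were few. For Jchain it was 12.6 in kidney and 3.3 in spleen, and for Ighm 1.86 to 3.61 over the 5 tissues. Some rarer genes spread more within a tissue, such as Ighg1 in liver (31.3), Ighg2c in kidney (19.9) and Ighe in spleen (28.4).

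The Igha ranking recurred between tissues. Of the 3 Ctcf+/- libraries of a tissue, the one numbered 1 had the highest Igha level in 4 of 5 tissues, all but liver, and in those 4 it was also the highest of all 6. Of the 3 WT libraries, the one numbered 1 was highest in 4 of 5 tissues, all but brain. In muscle, Igha ran from 0 to 0.769 CPM, and in brain from 0.00952 to 0.669 CPM. Between tissues the mean order for Igha and for Jchain was spleen, kidney, liver, muscle, brain. For both genes kidney and liver were not distinguished by the test, nor were muscle and brain. The ratio of Jchain to Igha levels had a median of 0.33 in kidney, 0.342 in liver and 0.781 in spleen.

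Ighe was counted only in spleen and, with few counts, in 2 liver libraries. Spleen had 0.201, 0.0753 and 0.0876 CPM in WT and 2.14, 0.239 and 0.268 CPM in Ctcf+/-. Over the 30 libraries 22 had no Ighe count.

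Over the tissue pairs without spleen, the 10 genes were called 9 times between brain and kidney (background 78.8%), 8 times between brain and liver (79%), 2 times between brain and muscle (77.4%), 3 times between kidney and liver (64.6%), 9 times between kidney and muscle (71.9%) and 8 times between liver and muscle (71.6%). The low counts for brain with muscle, and for kidney with liver, are below the share of all genes called in those pairs. The 2 calls between brain and muscle were Ighm, higher in muscle, and Ighg2c, higher in brain. In all, 79 of 100 tests of a gene in a tissue pair passed, and 71 of the 79 did so in every alternative fit that gave a result. Ighe had a result in 5 alternative fits and each other gene in 7. The other 8 were Ighm in 3 pairs, Ighg1 in 2 and Ighg2c in 3, and no call changed its sign.

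Isotype shares were computed for each library as the share of the 8 heavy-chain constant counts. IgM took 89.4% to 92.2% in brain and 95.6% to 99.7% in muscle. In kidney it took 13.5% to 59.1%, in liver 25.3% to 77.5% and in spleen 35.8% to 75.5%. IgA had a median share of 39.8% in kidney, 17.7% in liver and 9.19% in spleen, and of 0.321% in brain and 0.171% in muscle. IgG had medians of 11.3% in liver, 8.63% in kidney, 8.11% in brain, 5.94% in spleen and 0.44% in muscle. The totals behind a share were 1423 to 9761 counts outside spleen and 406678 to 833085 in spleen, so the 95% Wilson interval of a single library reached at most 2.55 percentage points to either side outside spleen and 0.147 in spleen. These intervals cover counting error only.

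The shares differed between tissues in 18 of 30 comparisons of 3 shares over 10 pairs (2-sided exact permutation test, n = 6 against 6, Benjamini-Hochberg adjustment over 30). All 6 pairs of brain or muscle with kidney, liver or spleen differed in the IgM and in the IgA share (exact p = 0.00216, adjusted p = 0.00382). The IgA share was higher in kidney than in spleen, at 44% ± 18.6 against 14.9% ± 16 (SD, n = 6, adjusted p = 0.0253, exact permutation test). The IgM share was 43.5% ± 16.8 in kidney and 65.2% ± 15.3 in spleen (SD, n = 6), which missed the threshold (adjusted p = 0.0513, exact permutation test). Tests between tissues, here and above, treated libraries as independent, although the tissues come from the same mice by the series design. Each kidney library had a lower IgM share than the spleen library of its genotype and number. In number order, WT had 36.7%, 46.9% and 57.4% in kidney against 61.1%, 72.5% and 75.5% in spleen. Ctcf+/- had 13.5%, 47.2% and 59.1% against 35.8%, 72.5% and 73.8%. Kidney and liver differed by less than their spread in the IgM and the IgA share. In the IgG share they differed by 2.54 percentage points, with an SD of 1.76 in kidney and 5.43 in liver. Adjusted exact p ran from 0.227 to 0.476 over the 3 shares. Because the brain and muscle totals are mostly Ighm with little Igkc, their shares describe mainly counts of that 1 gene.

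**Figure D3:**
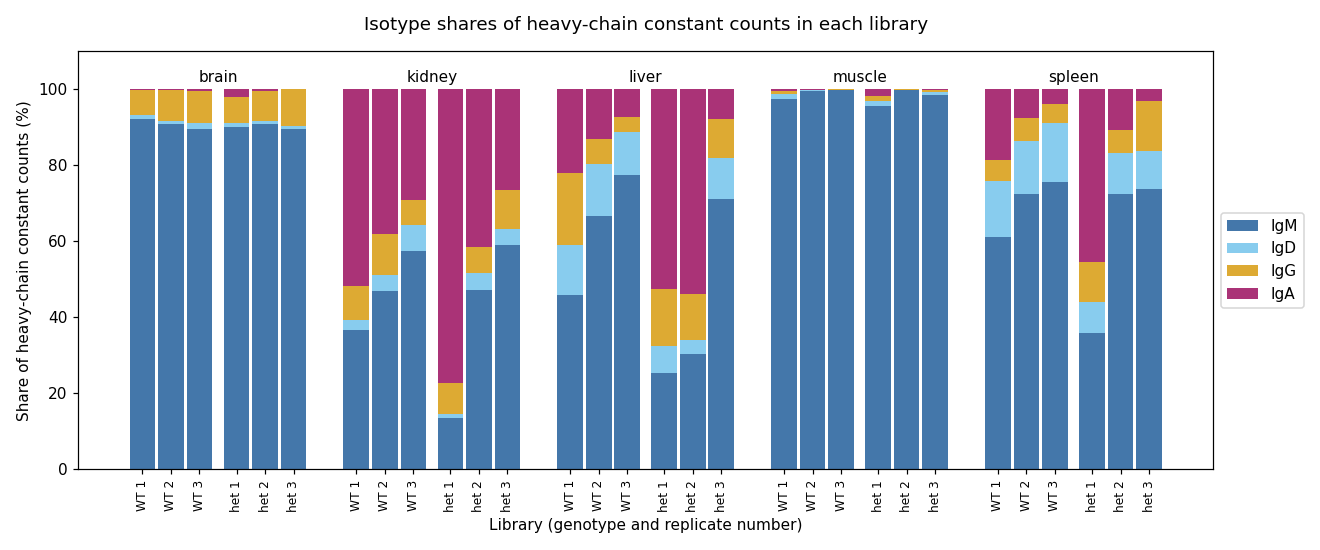
Share of the heavy-chain constant counts taken by IgM, IgD, IgG (4 gamma genes) and IgA in each of the 30 libraries, in percent. Libraries are grouped by tissue and genotype and carry their replicate numbers. IgM fills at least 89.4% of every brain and muscle library, and IgA ranges from 3.12% to 77.2% over the kidney, liver and spleen libraries.

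The comparison of Ctcf+/- with WT asks how loss of 1 Ctcf copy relates to the expression of these genes. No gene of the 10 was called in any tissue (edgeR quasi-likelihood test, Benjamini-Hochberg adjustment over all genes tested, adjusted p under 0.05). All 10 passed the filter on low counts in spleen, 9 did in kidney, 8 in liver and 6 each in brain and muscle. The background of called genes was low as well, at 0.242% in spleen, 0.0249% in muscle, 0.0157% in brain, 0.0193% in liver and 0.0211% in kidney. At an unadjusted p under 0.05 the number of the 10 genes was 5 in spleen (background 3.52%), 4 in liver (4.56%), 2 in brain (2.96%) and 0 in kidney (6.44%) and muscle (6.45%). All 11 of these had higher values in Ctcf+/-. The genes share cells of origin and are not independent of each other. DESeq2 called 1 of the 10, Ighg2c in spleen, where it called 187 of all 18615 genes tested, against 45 by edgeR. Within a tissue limma-voom called none of the 10.

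Spleen had the most complete data for this comparison. Ighg2c had 75.4, 47.9 and 49 CPM in WT and 208, 89 and 205 CPM in Ctcf+/- spleen. The groups did not overlap, and the fitted log2 fold change was 1.55 ± 0.37 (SE, adjusted p = 0.478, edgeR). DESeq2 gave 1.53 ± 0.39 with an adjusted p of 0.0126. Ighg2b had 83, 82.8 and 90.8 CPM in WT and 210.2, 107 and 350.5 CPM in Ctcf+/-, again without overlap (log2 fold change 1.40 ± 0.40 SE, adjusted p = 0.779, edgeR). The WT libraries were close together for Ighg2b, and the Ctcf+/- libraries were spread over more than 3-fold.

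Ighg1 had 25, 10.6 and 15.4 CPM in WT and 80.5, 12.9 and 50.6 CPM in Ctcf+/- spleen, and Ighg3 48.8, 59.9 and 65.8 CPM in WT and 117, 62.4 and 82 CPM in Ctcf+/-. Both sets overlapped, with the Ctcf+/- library numbered 2 inside the WT range. Ighe, given above, did not overlap, but the log2 fold change of 2.89 ± 0.998 (SE, adjusted p = 1, edgeR) rests largely on the 306 counts of the Ctcf+/- library numbered 1. Groups without overlap were found for 4 of the 10 genes in spleen (Ighg2b, Ighg2c, Ighe and Igkc), where 6.51% of all genes tested showed none. The 4 genes were all higher in Ctcf+/-.

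Ighm and Ighd, the genes of unswitched B cells, had small fold changes in spleen. Ighm had 2577, 2467 and 3255 CPM in WT and 2084, 3292 and 3884 CPM in Ctcf+/- (log2 fold change 0.18 ± 0.30 SE, adjusted p = 1, edgeR). Ighd had 624, 473 and 667 CPM in WT and 477, 489.9 and 524 CPM in Ctcf+/- (log2 fold change -0.23 ± 0.19 SE, adjusted p = 1, edgeR). Both pairs of groups overlapped. Over the 10 genes the median log2 fold change in spleen was 1.16, against -0.0044 over all genes tested, and 9 of 10 values were above 0.

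Igha in spleen was dominated by 1 library. The WT values were 782, 261 and 167 CPM and the Ctcf+/- values 2641, 487 and 164 CPM, so the lowest and the highest library were both Ctcf+/-. The log2 fold change was 1.44 ± 1.05 (SE, adjusted p = 1, edgeR), and without Ctcf+/- library 1 it was -0.31. Jchain had 251, 238 and 345 CPM in WT and 787, 316 and 460.4 CPM in Ctcf+/- (log2 fold change 0.92 ± 0.35 SE, adjusted p = 1, edgeR). Igkc had 2013, 1179.8 and 1794 CPM in WT and 2531, 2275 and 2031 CPM in Ctcf+/- (log2 fold change 0.47 ± 0.27 SE, adjusted p = 1, edgeR), without overlap by a narrow margin.

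Other cell types varied between the spleen libraries as well. The summed red cell markers ran from 10999 to 65115 CPM in WT and from 15419.5 to 55875 CPM in Ctcf+/-, and pancreatic acinar markers reached 1302 CPM in the Ctcf+/- library numbered 2. The B cell marker sum was 4816 to 6433 CPM in WT and 4463 to 5197 CPM in Ctcf+/-. Their part in the values of the 10 genes was not tested.

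In liver, 4 genes had an unadjusted p under 0.05. Jchain had 3.31, 2.01 and 1.02 CPM in WT and 6.79, 9.27 and 3.14 CPM in Ctcf+/- (log2 fold change 1.60 ± 0.47 SE, adjusted p = 0.753, edgeR). Igha had 9.59, 5.93 and 2.45 CPM in WT and 28.7, 41.3 and 3.03 CPM in Ctcf+/- (log2 fold change 2.03 ± 0.79 SE, adjusted p = 1, edgeR). Ctcf+/- library 3 lay within the WT range for both. Igkc (0.97 ± 0.38 SE) and Ighg2c (1.32 ± 0.54 SE) also had log2 fold changes above 0, and Ighd (-0.51 ± 0.24 SE) and Ighm (-0.25 ± 0.27 SE) below 0, all with adjusted p = 1 by edgeR. No gene of the 10 had groups without overlap among those tested in liver, where the background was 8.93%. When both liver libraries numbered 3 were left out, a comparison added after seeing the data, Igha was called at 2.19 ± 0.27 SE on the log2 scale (adjusted p = 0.0393, edgeR). Calls over all genes rose as well in that fit, to 46 of 15633 genes from 3 of 15584 with all 6 libraries. The libraries left out had the lowest Igha level of their genotype.

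In brain, Ighm and Ighg2c were the genes with an unadjusted p under 0.05. Ighm was higher in all 3 Ctcf+/- libraries than in all 3 WT libraries (log2 fold change 0.42 ± 0.14 SE, adjusted p = 1, edgeR), and it was the 1 tested gene of the 10 without overlap in brain (background 11.7%). Ighg2c overlapped in 1 library (0.48 ± 0.18 SE, adjusted p = 1, edgeR). These are the genes whose brain levels were out of step with Igkc and with B cell markers. In the same comparison Igkc had a log2 fold change of 0.68 ± 0.33 (SE) and Cd79a of -0.23 ± 0.25 (SE), neither of them called (edgeR). Of 9 B cell markers tested in brain, 1 had a log2 fold change above 0, and the median was -0.04. The part of B cell number in the values of Ighm and Ighg2c was not tested. Ighg3 was at 0 in all WT brain libraries and at 0.0319, 0.0174 and 0.0476 CPM in Ctcf+/-, too few counts for the test. It was likewise untested and without overlap in liver (0.0708 to 0.168 CPM in WT, 0.221 to 0.401 CPM in Ctcf+/-). The same held in muscle (0 to 0.0154 CPM in WT, 0.016 to 0.379 CPM in Ctcf+/-), with at most 1 count in a WT library. The Ighg3 groups overlapped in kidney and spleen.

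Kidney and muscle gave wide errors when libraries were not paired. In kidney the log2 fold changes of the 9 tested genes ran from -0.16 ± 0.32 (SE) for Ighd to 1.85 ± 1.09 for Ighg3, and the smallest adjusted p was 0.914 (edgeR). In muscle they ran from -0.01 ± 0.49 (SE) for Ighm to 1.69 ± 1.16 for Igha, with a smallest adjusted p of 0.896 (edgeR). In both tissues no tested gene of the 10 had groups without overlap, where the background was 11.1% in kidney and 11.9% in muscle.

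Same-numbered kidney libraries of the 2 genotypes deviated together, and pairing them narrowed the errors. Igha, Jchain, Igkc, Ighg2c and Ighg3 were each higher in Ctcf+/- in 3 of 3 kidney pairs, with 1 Ighg3 pair at 6 against 0 counts. Ighm, Ighg1 and Ighg2b were higher in 2 pairs and Ighd in 1. The share of all genes higher in 3 of 3 pairs was not computed, and these genes vary together. With the replicate number as a block, the log2 fold change of Igha in kidney was 0.75 ± 0.13 (SE, adjusted p = 0.104, edgeR), against 0.99 ± 0.99 (SE) without it. Jchain had 0.69 ± 0.13 (adjusted p = 0.118), Igkc 0.68 ± 0.15 (adjusted p = 0.183) and Ighg3 1.89 ± 0.45 (adjusted p = 0.219) in the blocked edgeR fit. None was called, while 5 of the 9 tested genes had an unadjusted p under 0.05 instead of 0 (background 8.6% with the block). Brain libraries also deviated together by number, and there the block gave 4 of 6 genes instead of 2 at that threshold (Ighm, Ighg2c, Igha and Igkc, background 6.69%), with 0 called. With the block, liver had 5 of 8 genes instead of 4 at that threshold (852 of all 15584 genes). Spleen had 4 of 10 instead of 5 (517 of 18615), and muscle 0 of 6 with or without it (1504 of 16064 with it).

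**Figure D4:**
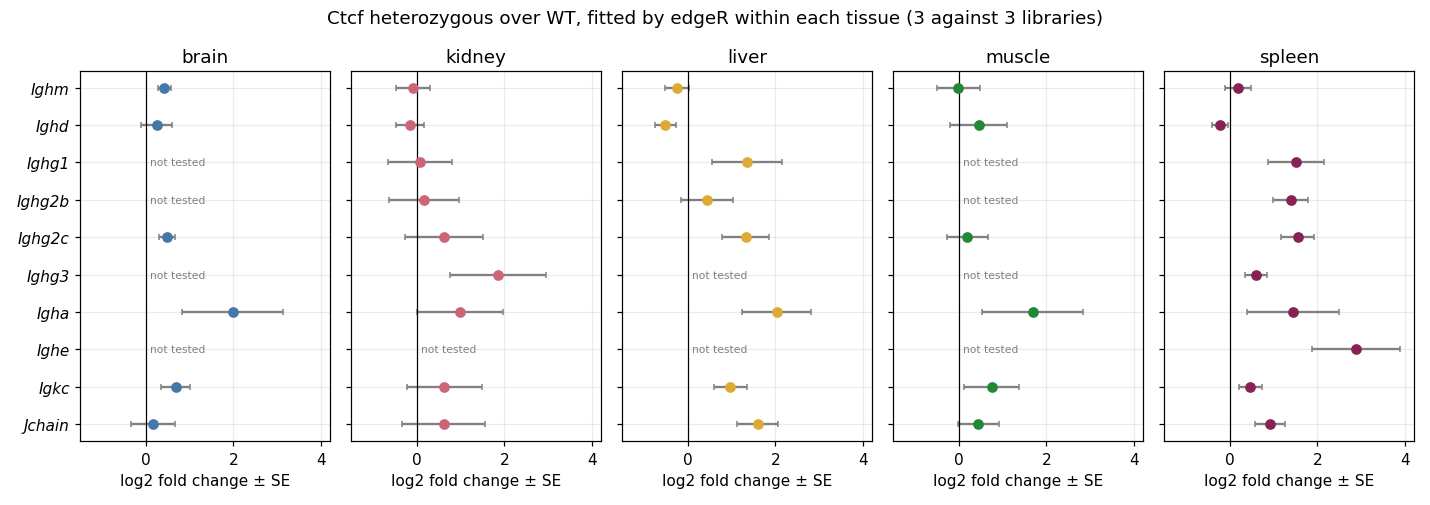
Fitted log2 fold change of Ctcf+/- over WT with its SE for each gene in each tissue (edgeR, 3 against 3 libraries); genes that did not pass the filter on low counts are marked as not tested. Most values lie above 0, from 1.40 to 1.55 for Ighg1, Ighg2b and Ighg2c in spleen, and no gene passed an adjusted p of 0.05.

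A model with 1 genotype effect shared by the 5 tissues called none of the 10 genes (edgeR, background 0.194% of 24262 genes). At an unadjusted p under 0.05 it held 8 of the 10, all but Ighm and Ighd and all higher in Ctcf+/-, where the background was 5.91%. The largest were Ighe (2.75 ± 0.72 SE, adjusted p = 0.253, edgeR), which rests on spleen, Igha (1.55 ± 0.52, adjusted p = 0.409) and Ighg3 (1.23 ± 0.39, adjusted p = 0.332). Ighg2c had 0.94 ± 0.28 with an adjusted p of 0.264, and limma-voom gave it 1.31 with an adjusted p of 0.00254. The share of all genes that limma-voom called in this model is not given here, so its call of Ighg2c lacks a background. Ighm had 0.07 ± 0.18 and Ighd -0.12 ± 0.17 (SE). The 5 tissues come from the same 6 mice by the series design, so the 30 libraries are not 30 independent animals and these p-values may be too small. A genotype effect that differs between tissues was called for none of the 10 by edgeR, DESeq2 or limma-voom, where 0.758% of all genes were called by edgeR. At an unadjusted p under 0.05 it was 0 of the 10 (edgeR, background 6.66%). The lowest adjusted p was 1 (edgeR).

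Isotype shares did not pass a test between the genotypes, and with 3 against 3 libraries the smallest exact p is 0.1. In spleen the IgG share was 5.51%, 5.92% and 5.13% in WT and 10.6%, 5.97% and 13.1% in Ctcf+/-. These groups did not overlap, though the second Ctcf+/- library exceeded the highest WT library by little (5.52% ± 0.395 against 9.88% ± 3.61, SD, n = 3, exact permutation p = 0.1, adjusted p = 0.857 over 15 tests). The IgD share in spleen was lower in all 3 Ctcf+/- libraries, at 9.65% ± 1.33 against 14.7% ± 0.782 in WT (SD, n = 3, exact permutation p = 0.1). In liver the IgD share was likewise lower in all 3, at 7.23% ± 3.55 against 12.7% ± 1.39 (SD, n = 3, exact permutation p = 0.1). IgD was not among the shares in the 15 adjusted tests, so its p-values are unadjusted. A share depends on the counts of the other isotypes too. The Ighd level itself overlapped between genotypes in both tissues. The ratio of Ighd to Ighm counts was 0.192 to 0.242 in WT and 0.135 to 0.229 in Ctcf+/- spleen. In liver it was 0.144 to 0.285 in WT and 0.121 to 0.288 in Ctcf+/-. What lowers the IgD share was not tested.

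The IgA share had the largest differences and the largest spread. It was 14.2% ± 7.5 in WT and 38.1% ± 26.3 in Ctcf+/- liver (SD, n = 3, exact permutation p = 0.3), and 10% ± 7.62 in WT and 19.7% ± 22.5 in Ctcf+/- spleen (exact permutation p = 0.7, n = 3). In kidney it was 39.6% ± 11.4 in WT and 48.4% ± 26.1 in Ctcf+/- (exact permutation p = 0.7, n = 3). Each difference was smaller than the SD of its Ctcf+/- group.

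The light-chain side was described by kappa and lambda. Igkc made up 80.3% to 87.9% of light-chain constant counts in Ctcf+/- spleen and 77.2% to 79.8% in WT spleen. These ranges did not overlap, and the difference was not tested. In brain, kidney, liver and muscle the ranges of this share overlapped between the genotypes. The spleen value stands among many ratios computed for these libraries. Some others also had ranges without overlap, such as Ighg2c to Ighg2b counts in kidney and in liver. With 3 against 3 libraries the smallest exact p is 0.1. Of the 4 lambda constant genes none was called in any tissue. Iglc2, the most abundant in spleen, had 249 ± 54.4 CPM in WT and 247 ± 48.1 CPM in Ctcf+/- spleen (SD, n = 3, log2 fold change 0.01 ± 0.23 SE).

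Other genes of antibody production did not pass the genotype test. Of 12 plasma cell and secretory genes 0 were called in the 5 tissues, and in spleen 9 of 12 had log2 fold changes above 0, with a median of 0.21. Txndc5, an endoplasmic reticulum oxidoreductase, had 0.28 ± 0.17 (SE), Xbp1, the transcription factor of the secretory programme, 0.19 ± 0.17, and Mzb1, a chaperone of B and plasma cells, -0.10 ± 0.20. Of 15 B cell markers 0 were called, and in spleen 0 of 15 had a log2 fold change above 0, with a median of -0.16. In liver the same held for 0 of 15, with a median of -0.40.

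Of 19 class switch genes 0 were called in any tissue, with a spleen median of -0.03. The 3 most abundant in spleen, H2afx, Mdc1 and Rif1, which act at DNA breaks, had log2 fold changes of -0.34 ± 0.48, -0.0015 ± 0.26 and 0.08 ± 0.41 (SE). Of 10 immunoglobulin receptors and carriers 0 were called. In spleen, Fcmr, the IgM Fc receptor, had -0.25 ± 0.20, Fcer2a, the low-affinity IgE receptor, -0.01 ± 0.17, and Fcgr2b, the inhibitory IgG receptor, -0.18 ± 0.29 (log2 fold change ± SE).

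Within tissues, the genes varied together to different degrees. After each tissue's mean was subtracted from log2 CPM, the correlation over 30 libraries was 0.842 between Ighg2b and Ighg2c, 0.819 between Ighg1 and Ighg2c, 0.783 between Igkc and Jchain and 0.75 between Igha and Igkc. Ighm was nearly unrelated to Igkc (0.0759), Ighd (-0.037) and Jchain (0.0553). These correlations are descriptions across libraries that share mice, tissues and depth. Ighg2b and Ighg2c also share sequence, as shown above.

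Outside the immunoglobulin genes, the patterns most like Igha within tissues included those of Parp9 (r = 0.761), Irgm1 (0.758), Gbp6 (0.735) and Cp (0.718), of 14782 genes ranked. Irgm1 and Gbp6 are interferon-inducible GTPases, and Cp encodes ceruloplasmin, a copper-carrying plasma protein. For Jchain they were Fuk (0.719), Cspp1 (0.692), Stat2 (0.678), Luc7l3 (0.676) and Rbm12b2 (0.676). For Ighm they included Rtl6 (0.777), Hapln4 (0.737), Rad9a (0.662) and Socs2 (0.641), none of which is a known B cell marker.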

How the data were processed

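RNA libraries from 5 mouse tissues were counted by the authors. The deposited values are raw counts of fragments per gene, made with featureCounts 1.5.0-p3 on Ensembl 86 gene models, without strand and without reads that map to several places, per the file headers. STAR and the GRCm38 build are named in the submitters' processing notes. The 10 genes and all lists were chosen with earlier results of these data known. Named are the 10 genes, for each list of antibody production genes up to 3 of the most abundant in spleen, every listed gene or tissue marker called, and, of the 5 genes most like each of Ighm, Igha and Jchain, those that are reported here.

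Fits used edgeR 4.0.16 in R 4.3.3 (filterByExpr, TMM scaling, quasi-likelihood test, Benjamini-Hochberg adjustment over all genes tested), with the 6 libraries of a tissue for genotype and all 30 for tissues. Levels are CPM with TMM factors over 30 libraries. DESeq2 1.42.0 and limma 3.58.1 (voom) were alternatives. Shares were compared with exact permutation tests in SciPy. The scripts were tested on simulated data. P-values measure the spread between these libraries, and no 2 replicates agreed within counting noise. Same-numbered WT and Ctcf+/- libraries deviated together in brain (r = 0.207 to 0.537) and kidney (0.19 to 0.212) by the criterion of every r over 0.1. The brain Ctcf+/- library numbered 1 correlated about as much with WT library 2 (r = 0.216) as with WT library 1 (0.207). No source says what a number shares.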

Additional observations from a re-analysis of the deposited data

How the results depend on the processing

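The absence of calls held in most settings. Of 693 refits of single genes within tissues, 2 were called: Ighg2c in spleen by DESeq2 (so 1 of the 10 genes instead of 0) and Igha in liver without both libraries numbered 3 (also 1 instead of 0). Shared over tissues, limma-voom called 1, Ighg2c, for which no background of all genes is given. The sign differed from the reported one in 44 of the 693 refits, none of them called. A replicate block, with the number as a term, left 0 of the 10 genes called in each tissue, and same-numbered libraries correlated at -0.472 to 0.475 for spleen, 0.083 to 0.271 for muscle and 0.051 to 0.277 for liver, where the numbers may pair nothing. Between tissues, 70 to 83 of the 100 tests passed over 7 alternatives (81 with the block), and 18 to 20 of the 30 share comparisons over 3. Ighe had a result in 5 of the 7 alternatives. WT shares alone cannot pass with 3 libraries a tissue and were not counted. Scaled by exon length, the IgG share difference in kidney was 1.62 percentage points instead of -0.357, and the cause was not tested; the 14 other share differences stayed within 1 SD in all settings. Leaving out 1 library moved the IgA share difference in spleen between -3.11 and 18.0 points and in liver between 16.0 and 39.1. Counts over all genes moved more. Other settings, left-out libraries aside, gave 0 to 250 called genes for spleen (45 as reported, 0 with the block), 2 to 229 for muscle (4, 118), 2 to 73 for liver (3, 7), 2 to 164 for kidney (4, 21) and 1 to 28 for brain (3, 22).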
